A study of Mus musculus with 4 samples.

Results

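The genes described here are 37 mouse genes whose human counterparts are high-confidence risk genes for autism, other than Chd8 itself. They were chosen by symbol from a fixed list, and all 37 were found among the 32285 genes of the count matrices. The study induced a heterozygous mutation of Chd8, an ATP-dependent chromatin remodeller and itself an autism risk gene, in the fetal mouse brain, and single-cell RNA sequencing was performed on sorted tdTomato-positive forebrain cells at postnatal day 5. Control libraries came from NestinCreERT2/tdTomato/Chd8+/+ mice and mutant libraries from NestinCreERT2/tdTomato/Chd8+/F mice, where F is the floxed allele. All mice were labelled C57BL/6, carried the tamoxifen-inducible Cre and the Cre-dependent tdTomato reporter, and were exposed to tamoxifen in midfetal life. There were 2 libraries per genotype, each pooled from 3 mice, so a library and not a cell is the replicate and p-values measure only the spread between these libraries.

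Many of the autism risk genes known from human genetics fall into a pair of broad groups. The larger group holds chromatin and transcription regulators, which act in the nucleus of progenitors and of young neurons, and the other holds proteins of the synapse, the axon initial segment and the neuronal surface. Nestin is expressed in neural stem cells, so the Nestin-driven recombinase acts in cells that hold it at the time of tamoxifen and the label passes to their neuronal and glial progeny.

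By role, the 37 genes comprised 10 histone methylation and Polycomb-related enzymes and readers, 6 remodelling, architectural and chromatin-bound factors, 6 transcription factors and cofactors, 8 kinases, phosphatase, ubiquitin, acetylation and mTOR-inhibitor genes, and 7 synapse, axon and channel genes. Levels are given as CPM, the unique molecular identifiers (UMIs) of a gene per 1e+06 UMIs of a cell class in a library. They are compared between classes and libraries within a gene and never between genes.

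The 4 libraries held 46274374 to 79328841 UMIs in 6107 to 7279 barcodes, and 17623 of 27742 barcodes passed the filters on UMIs, genes and mitochondrial share. Every pair of libraries shared 8 to 21 barcodes. The replicate numbers also separated the libraries in other ways: the matrix headers named Cell Ranger 7.0.0 in replicate 1 and 5.0.1 in replicate 2, 9.375% and 12.33% of barcodes exceeded the mitochondrial limit in replicate 1 against 44.0% and 37.75% in replicate 2, and Xist, the RNA of the inactive X chromosome, stood at 0.149 and 0.153 CPM in replicate 1 against 1633 and 1749 CPM in replicate 2. The study's materials give male mice, so the sex of the mice pooled in replicate 2 is in doubt, and sex, processing version and replicate cannot be told apart. The cells fell into 31 clusters, 8 of them with over 90% of their cells from 1 replicate. The clusters were grouped by marker genes into 15 classes, whose names below mean "like" that cell type, and 12 classes with at least 20 cells in every library were compared. The labels call the cells neuronal, yet excitatory and inhibitory neurons made up 8.44% and 17.6% of the cells, and astrocytes, oligodendrocyte lineage cells, ependymal cells, pericytes and macrophages were also present.

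Chd8, the targeted gene, stood over all cells at 61.7 CPM in control replicate 1, 68.7 in mutant replicate 1, 89.8 in control replicate 2 and 94.9 in mutant replicate 2. It was therefore higher in the mutant library of each replicate, with a log2 fold change of 0.09 (SE 0.33, n = 2 against 2, edgeR quasi-likelihood test, adjusted p = 1.0). The libraries were made from the 3' ends of transcripts and the recombined part of the allele need not be read, so this count does not check the genotype labels.

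Some of the autism risk genes were found in nearly all cell classes and others in few, and promoter windows of 4 of them are shown as examples. The windows below run from 250 bases before to 50 bases after the annotated start and were taken from RefSeq on build GRCm38.p6, all on the plus strand. CG, which reads the same on both strands, is in capitals. They were chosen after their values were seen, to show the neuronally restricted Myt1l, Scn2a, a gene of low levels that peaked in oligodendrocyte precursors, the neuronally restricted Bcl11a and the broadly found Med13l. They lie at chr12:29528134-29528433 for Myt1l, chr2:65620519-65620818 for Scn2a, chr11:24080445-24080744 for Bcl11a and chr5:118560469-118560768 for Med13l.
Myt1l: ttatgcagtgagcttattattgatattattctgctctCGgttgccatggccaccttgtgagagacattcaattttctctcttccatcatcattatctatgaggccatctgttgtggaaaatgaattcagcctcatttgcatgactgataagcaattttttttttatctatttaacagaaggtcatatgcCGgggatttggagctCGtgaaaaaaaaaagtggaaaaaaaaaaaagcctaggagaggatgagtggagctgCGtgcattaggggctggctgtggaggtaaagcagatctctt
Scn2a: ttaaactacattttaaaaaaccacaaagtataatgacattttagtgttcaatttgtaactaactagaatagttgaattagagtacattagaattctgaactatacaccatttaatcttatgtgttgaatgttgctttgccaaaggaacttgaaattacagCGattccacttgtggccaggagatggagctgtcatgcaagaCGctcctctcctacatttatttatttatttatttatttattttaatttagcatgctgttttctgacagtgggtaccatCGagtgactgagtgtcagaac
Bcl11a: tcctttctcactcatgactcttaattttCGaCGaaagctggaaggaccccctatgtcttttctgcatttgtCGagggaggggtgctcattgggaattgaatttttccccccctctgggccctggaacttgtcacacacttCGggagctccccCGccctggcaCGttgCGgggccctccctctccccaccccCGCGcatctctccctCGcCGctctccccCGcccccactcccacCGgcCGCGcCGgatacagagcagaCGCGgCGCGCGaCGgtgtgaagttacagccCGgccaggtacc
Med13l: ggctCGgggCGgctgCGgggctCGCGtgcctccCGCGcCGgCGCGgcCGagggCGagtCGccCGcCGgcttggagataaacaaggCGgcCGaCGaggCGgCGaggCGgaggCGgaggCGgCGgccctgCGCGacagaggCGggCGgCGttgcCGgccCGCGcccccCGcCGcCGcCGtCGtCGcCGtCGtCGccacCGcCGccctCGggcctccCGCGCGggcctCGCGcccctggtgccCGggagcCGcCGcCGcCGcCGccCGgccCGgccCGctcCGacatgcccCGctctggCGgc

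The window of Scn2a held 3 CG, that of Myt1l 4, that of Bcl11a 23 and that of Med13l 61. The fewest CG, however, were found in the windows of genes of broad expression that are not shown, with 1 for Setd5 and 2 for Tlk2, so the 4 windows do not stand for the list. Some windows lie inside the gene, such as that of Setd5 at chr6:113104685-113104984 and that of Bcl11a. In GENCODE vM21 these genes start at chr6:113077365 and chr11:24078056, so their CG counts do not describe the sequence at those starts. Of the 37 genes, 29 had a window, and 11 of these had more than 1, of which 1 per gene was used. Their CG counts ranged from 1 to 61 with a median of 23, against a median of 18 over the 14047 tested genes with a window. At least 1 CG was found in 99.0% of those genes. A GC content over 50% with an observed to expected CG ratio over 0.6 was found in 21 of the 29 windows, against 58.0% of all 14047. Across the 29 genes, the CG count and the specificity of expression over classes had a Spearman rho of -0.15, given as a description.

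All 37 genes were detected, the least abundant being Shank3, a postsynaptic scaffold protein, with 2230 UMIs over all cells. On average over the libraries 16 of them were highest in inhibitory neurons, 5 in oligodendrocytes, 4 in excitatory neurons, 4 in oligodendrocyte precursors (OPCs), 3 in dividing inhibitory neuron progenitors, 2 in ependymal cells and 1 each in pericytes, neural progenitor cells (NPCs) and dividing astrocyte progenitors. Excitatory or inhibitory neurons were the highest class for 16.8% of the 13695 genes that reached 10 CPM in a class. The class of the highest level was the same in all 4 libraries for 17 of the 37. A specificity index over classes, which is 0 for equal levels and 1 for a single class, had a median of 0.447 over the 37 and of 0.612 over the 13695 genes. These classes were made from the same cells with the 37 genes left out of the clustering, so their levels are a description.

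**Figure D1:**
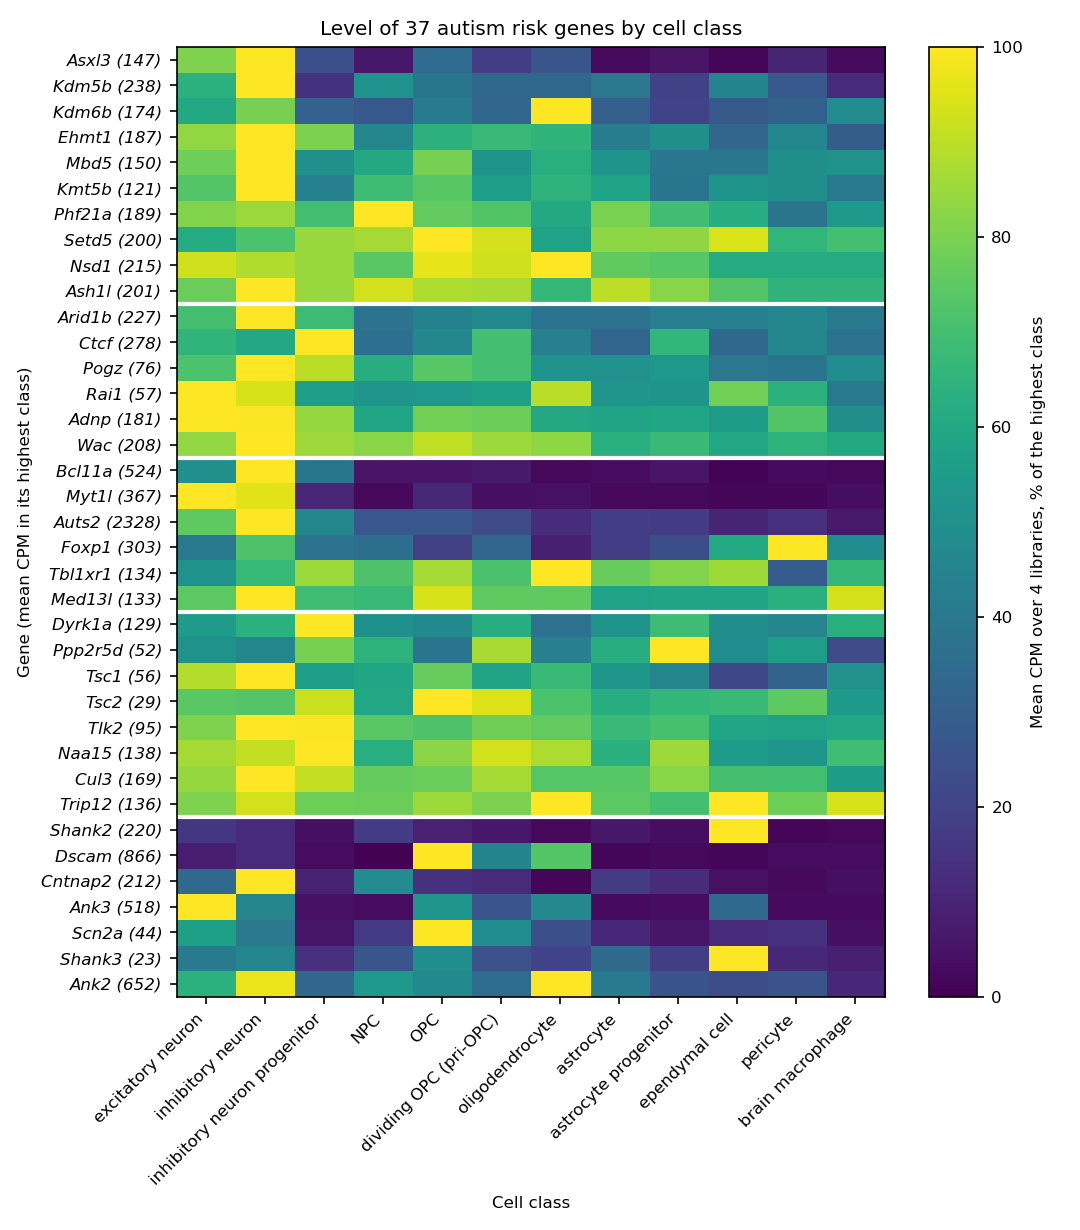
Mean CPM over the 4 libraries of each gene (rows, grouped by role) in each of the 12 cell classes (columns), as a percentage of the gene's highest class, with the mean CPM of that class in brackets. The synapse and axon genes at the bottom, with Bcl11a, Myt1l and Asxl3, are bright in few classes, while Trip12, Ash1l, Wac and Med13l are bright in nearly all.

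Among the chromatin enzymes, Asxl3, a Polycomb-related subunit of a histone H2A deubiquitinase complex, had the most restricted pattern. Asxl3 in inhibitory neurons stood at 183.5 CPM in control replicate 1, 176 in mutant replicate 1, 99.4 in control replicate 2 and 130.0 in mutant replicate 2. Its mean of 147 CPM there was 52.8 times the 2.79 CPM of ependymal cells, where every library lay below every library of the inhibitory neurons. Kdm5b, a histone H3K4 demethylase, was likewise highest in inhibitory neurons, at 219, 195, 296 and 240 CPM in the same order of libraries, and its mean of 238 CPM was 8.38 times that of brain macrophages. Kdm6b, which removes methyl groups from H3K27, differed 4.97 times between oligodendrocytes, its highest class, and dividing astrocyte progenitors. Ash1l, an H3K36 methyltransferase, was the most evenly distributed enzyme of the group, its highest and lowest class means differing 1.54 times.

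The remodelling and chromatin-bound factors were found in all classes. Ctcf, the zinc finger protein that anchors chromatin loops, was highest in dividing inhibitory neuron progenitors at 264, 243, 306 and 301 CPM in control replicate 1, mutant replicate 1, control replicate 2 and mutant replicate 2, with dividing OPCs second. The ratio of its highest class to astrocytes, its lowest, was 3.06. Arid1b, a BAF complex subunit, and Pogz, a heterochromatin-associated zinc finger protein, were highest in inhibitory neurons and varied 2.65 and 2.57 times across classes. Wac, an adaptor of histone H2B ubiquitination, varied 1.67 times.

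Of the transcription factors, Bcl11a and Myt1l were highest in the postmitotic neuron classes in these libraries. Bcl11a, a zinc finger factor of forebrain neurons, was highest in inhibitory neurons at 426, 443, 534 and 695 CPM, 89.9 times its mean in ependymal cells. After thinning each cell to 2000 UMIs, 56.3% of inhibitory neurons held a Bcl11a UMI (exact binomial 95% interval 54.5 to 58.1), against 1.66% of brain macrophages (0.611 to 3.57), which should lack it. Without thinning, at median depths of 6530 and 10716.5 UMIs, these Bcl11a shares were 85.4% and 8.29%. The shares pool the cells of all libraries, so the intervals cover counting error only and not the spread between libraries. Myt1l, a repressor of non-neuronal genes, stood at 532, 433, 235 and 268 CPM in excitatory neurons, and its mean of 367 CPM did not differ from the 350.2 CPM of inhibitory neurons beyond the spread of the libraries. Auts2, a Polycomb-associated activator, was highest in inhibitory neurons on average, yet its order changed with the replicate, as excitatory neurons were highest in replicate 2. Foxp1, a forkhead repressor, was highest in pericytes in every library, with 303 CPM on average. Med13l, a subunit of the Mediator kinase module, varied 1.72 times across classes.

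The signalling and protein-turnover genes were also broad. Tsc1, which restrains mTOR complex 1 together with Tsc2, varied 4.70 times and was highest in neurons. Ppp2r5d, a regulatory subunit of protein phosphatase PP2A, was highest in dividing astrocyte progenitors and varied 4.40 times. Dyrk1a, a dual-specificity kinase, was highest in dividing inhibitory neuron progenitors in all 4 libraries and varied 2.66 times. Trip12, a ubiquitin ligase, showed the narrowest range of all 37 genes, 1.43 times between oligodendrocytes and dividing astrocyte progenitors.

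The synapse, axon and channel genes had the sharpest patterns, and not all were highest in neurons. Dscam, a homophilic cell adhesion molecule, was highest in OPCs, at 1451, 1598, 206 and 209 CPM in control replicate 1, mutant replicate 1, control replicate 2 and mutant replicate 2, and its mean of 866 CPM was 137 times that of NPCs. After thinning, 72.2% of OPCs and 71.3% of oligodendrocytes held a Dscam UMI, with 20.1% of inhibitory neurons and 2.21% of brain macrophages. The shares given for this group pool the cells of all libraries, although Dscam levels in OPCs were far lower in replicate 2. Cntnap2, a neurexin-related adhesion protein of the axon, was highest in inhibitory neurons in replicate 1 and in NPCs in replicate 2. Shank2, a postsynaptic scaffold protein, was highest in ependymal cells in every library, at 341, 345, 107 and 85.7 CPM, with 34.0% of thinned ependymal cells holding a Shank2 UMI against 0.552% of brain macrophages. Shank3 was also highest in ependymal cells, with 22.8 CPM on average. Ank3, which organizes the axon initial segment, was highest in excitatory neurons in every library with 518 CPM on average. Scn2a, a voltage-gated sodium channel, was highest in OPCs on average at 44.3 CPM, although in control replicate 1 the excitatory neurons stood at 53.4 CPM against 49.5 in OPCs. Ank2, another ankyrin, was the broadest of the group and varied 8.87 times.

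The genes differed between the replicates of the same genotype far more than between genotypes. Over all cells the median log2 ratio of replicate 2 over replicate 1 of the 37 genes was -0.57 in the control pair and -0.47 in the mutant pair, against -0.04 and -0.05 over the 18764 tested genes with introns. In both genotypes 26 of the 37 were lower in replicate 2 and 8 were higher, against 44% of all genes that were lower in both. The median absolute log2 ratio of mutant over control was 0.044 in replicate 1 and 0.13 in replicate 2 for the 37 genes, while that of replicate 2 over replicate 1 in the controls was 0.75. Over the 18764 genes the median absolute ratio of mutant over control was larger, 0.12 in replicate 1 and 0.23 in replicate 2.

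The difference between replicates followed the intronic sequence of the gene. The 37 genes had a median of 102727 intronic bases against 18610 for all genes, and 24 of them belonged to the top of 5 equal bins of genes by intronic sequence. In that bin, which spans 64487 to 2950572 intronic bases, the median log2 ratio in the controls was -1.17 for the 24 and -0.80 for all 3753 genes. Across the 37 genes intronic bases and the control ratio had a Spearman rho of -0.83, and across all genes of -0.38, where all points share the same pair of libraries. Dscam had the largest difference, -2.96 in the controls and -3.27 in the mutants, and Mbd5, a methyl-CpG-binding domain protein, stood at -2.46 and -2.67. Naa15, a subunit of an N-terminal acetyltransferase, and Kdm5b had the smallest, 0.16 and 0.084 for Naa15 and 0.11 and 0.013 for Kdm5b. Tsc2 and Ppp2r5d went the other way, with control ratios of 0.92 and 0.85. Cell Ranger counts intronic reads by default from its version 7 onwards, whereas earlier versions did not, but the setting used for these libraries is not given in the sources used here and its part in the result was not tested.

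**Figure D2:**
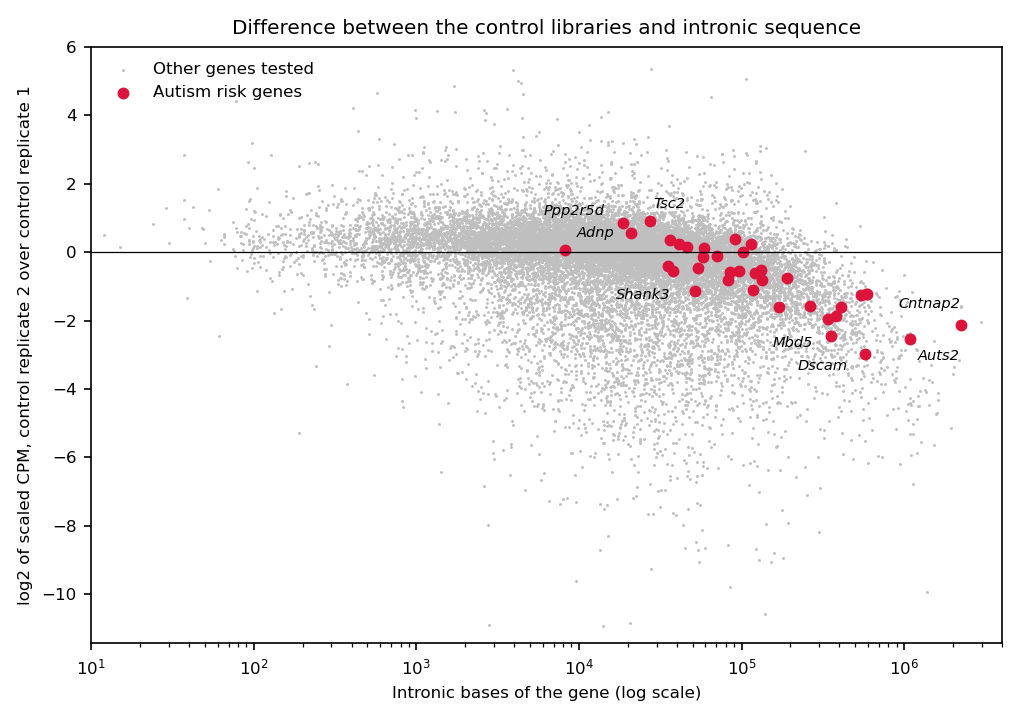
Each point is a gene, placed by its intronic bases (log scale) and by the log2 ratio of scaled CPM in control replicate 2 over control replicate 1 over all cells, with the 37 autism risk genes in red. Dscam at -2.96 and Mbd5 at -2.46 lie among the genes with the most intronic sequence, and Tsc2 at 0.92 and Ppp2r5d at 0.85 among those with less.

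For the mutation itself, the question was whether the other risk genes differed between mutant and control cells of a class. Of 430 gene and class pairs that passed the filter on low counts, which holds 30 to 37 of the genes per class, 0 were called at an adjusted p under 0.05 by edgeR with genotype alone, 0 had an unadjusted p under 0.05, and DESeq2 called 0. Over all genes and classes, the same edgeR fit called 0 of 146710 pairs (0%), and 0.14% had an unadjusted p under 0.05. That fit has no term for the replicate, so the difference between replicates counted as spread within a genotype. Few pairs of any genes passed it, and its 0 calls do not show equal levels. With 2 libraries a side, an exact two-sided permutation test of a single value cannot pass 0.05, since 2 of the 6 arrangements are at least as extreme as any observed one. With the replicate number as a block, 1 pair was called, Dscam in brain macrophages, against 0.0736% of all pairs. At an unadjusted p under 0.05 in that fit the mutant was higher in 10 pairs (1.73% of all pairs were) and lower in 19 (2.07%). Adnp held 7 of those 19. A comparison list of 76 further autism-related genes, fixed by name, gave 0 called of 857 pairs with genotype alone and 1 with the block, which was Lrrc4c, a synaptic adhesion gene, in brain macrophages.

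Among pairs with the same direction in both replicates, more were lower than higher in the mutant. In 138 of the 430 pairs the mutant library was lower than the control library in both replicates, against 25.2% of all pairs, and in 78 it was higher in both, against 23.6%. Both mutant libraries lay below both control libraries in 33 pairs, against 7.51% of all pairs, and above them in 11, against 7.8%. The share below was thus near that of all pairs, and the share above was smaller than that of all pairs. The 76 further genes were lower in both replicates in 264 and higher in 193 of 857 pairs. Their share of lower pairs was close to that of the 37 genes, and their share of higher pairs was larger. Of the 33 non-overlapping lower pairs, Nsd1 held 7, Adnp 6, Kdm5b 5 and Trip12 5, so a few genes made up most of them. The pairs are not independent, since a gene recurs across classes, and the share for the 37 genes was not tested.

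In inhibitory neurons 18 of 37 genes were lower in both replicates, against 29.7% of all genes there, and 4 were higher, against 22.1%, with a median log2 ratio of the 37 of -0.11 in replicate 1 and -0.0030 in replicate 2. Of the further autism-related genes, 75 were tested there, and 33 were lower and 9 higher, with medians of -0.071 and -0.021. The median of all genes there was -0.038 in replicate 1, so the skew was not particular to the 37 genes. Of the 37 genes in excitatory neurons, 11 were lower (26% of all genes) and 6 higher (21.8%). In OPCs 9 of 37 were lower (23.5%) and 4 higher (22.9%). In oligodendrocytes 12 of 34 were lower (25.7%) and 6 higher (24.6%). Elsewhere the count of lower genes ranged from 4 of 34 in pericytes (23.6% of all genes there), where 13 were higher (26.0%), to 17 of 37 in NPCs (24.5%), where 6 were higher (23.4%).

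Genes with the same direction in every class were counted within each replicate. In replicate 1, of the 30 genes tested in all 12 classes, 0 were lower in every class, against 3% of all genes tested in all classes, and 0 were higher, against 2.53%. In replicate 2, 4 were lower in every class, against 7.23%, namely Adnp, Nsd1, Tlk2 and Trip12, and 2 were higher, against 6.05%, namely Kdm6b and Med13l. With only 30 genes, the counts of 0 in replicate 1 lie near the shares of all genes, so they do not set the replicates apart. In replicate 2 the share of higher genes was near that of all genes. The share of lower genes was above that of all genes, but it rests on 4 of 30 genes and was not tested. Classes of a library share its preparation.

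Adnp, a homeodomain zinc finger protein of the ChAHP chromatin complex, over all cells stood at 118 CPM in control replicate 1, 117 in mutant replicate 1, 169.6 in control replicate 2 and 104 in mutant replicate 2. The high library was control replicate 2, and the other 3 lay close together. The median log2 ratio of mutant over control across classes was -0.0067 in replicate 1 and -0.76 in replicate 2. Adnp was lower in 6 of 12 classes in replicate 1 and in 12 of 12 in replicate 2.

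Nsd1, an H3K36 methyltransferase, had a like pattern, at 167, 168, 209.7 and 152 CPM over all cells in the same order of libraries, with median ratios across classes of -0.025 and -0.51. Trip12 stood at 122, 118, 119 and 87.8 CPM, where mutant replicate 2 was the low library, with medians of -0.062 and -0.44. Tlk2, a kinase of chromatin assembly, had medians of -0.023 and -0.44. Med13l had medians of 0.0040 and 0.41.

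Counting each direction by itself, Kdm6b was higher in both replicates in the most classes, 9 of 12. Kdm5b and Trip12 were lower in both in the most, 8 of 12 each. These are the extremes among the listed genes, and the share of all genes that reach such counts was not determined. As classes of a library share its preparation, the counts alone do not show an effect of genotype. Kdm5b over all cells stood at 106 CPM in control replicate 1, 92.8 in mutant replicate 1, 111 in control replicate 2 and 92.7 in mutant replicate 2, so both mutant libraries lay below both controls. Over all cells this held for 3 of the 37 genes, against 5.28% of all genes tested. Within replicates the mutant held 87.4% of the control level of Kdm5b (exact 95% interval of the ratio 84.6 to 90.4) in replicate 1 and 83.6% (80.0 to 87.4) in replicate 2, intervals that cover counting error only. Kdm5b was lower in both replicates in 8 of 12 classes, with median ratios of -0.24 and -0.28. The Kdm5b log2 fold change over all cells was -0.24 (SE 0.21, edgeR, adjusted p = 1.0).

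Kdm6b over all cells stood at 59.2, 63.7, 59.6 and 89.5 CPM in control replicate 1, mutant replicate 1, control replicate 2 and mutant replicate 2. Both mutant libraries were above both controls, and the difference was larger in replicate 2. Over all cells 1 of the 37 genes had both mutant libraries above both controls, against 5.69% of all genes tested. Kdm6b was higher in both replicates in 9 of 12 classes, with median ratios of 0.10 and 0.51. The Kdm6b log2 fold change over all cells was 0.35 (SE 0.27, edgeR, adjusted p = 1.0).

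**Figure D3:**
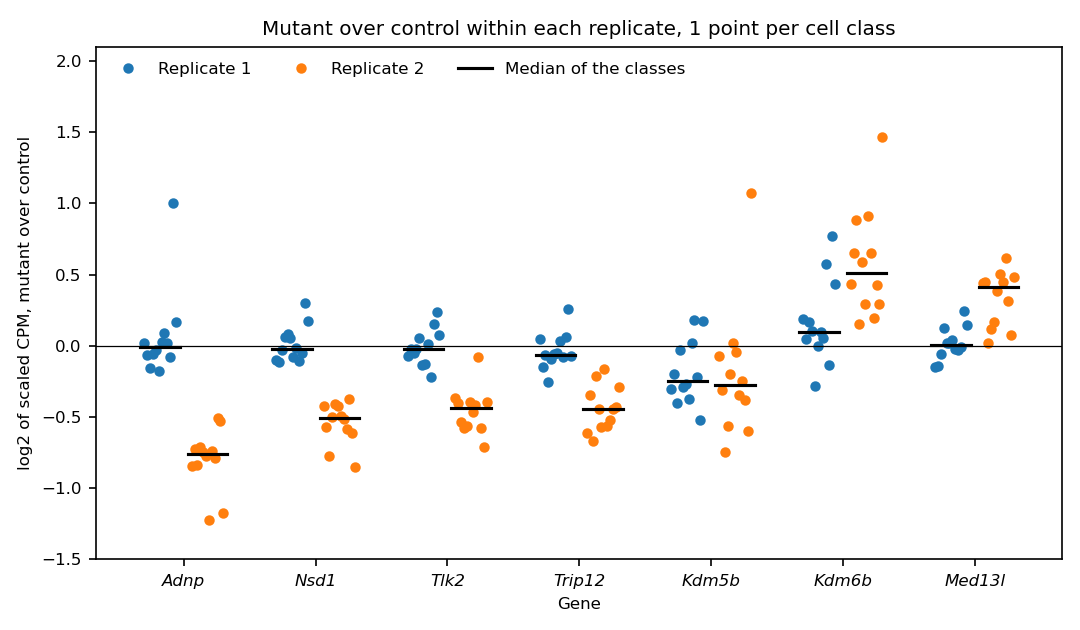
Each point is a cell class, placed by the log2 ratio of scaled CPM in the mutant over the control library of replicate 1 (blue) or replicate 2 (orange), with black bars at the median of the 12 classes. Adnp, Nsd1, Tlk2 and Trip12 lie below 0 in every class of replicate 2 and on both sides of 0 in replicate 1, while the medians of Kdm5b, at -0.24 and -0.28, lie below 0 in both.

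None of the largest differences that went the same way in both replicates, among genes with at least 50 UMIs in every library, passed the edgeR test. In excitatory neurons Ppp2r5d stood at 17.4 CPM in control replicate 1, 22.9 in mutant replicate 1, 29.6 in control replicate 2 and 36.6 in mutant replicate 2. Both replicate 2 libraries exceeded both replicate 1 libraries, so the genotypes overlapped, and its log2 fold change was 0.34 (SE 0.43, edgeR, adjusted p = 1.0). Mbd5 stood at 203, 197, 41.3 and 26.8 CPM in the same class and order. It too followed the replicate, with a log2 fold change of -0.14 (SE 1.19, adjusted p = 1.0). With the replicate block the fold changes were 0.34 (SE 0.23) for Ppp2r5d and -0.27 (SE 0.18) for Mbd5, neither of which passed.

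In inhibitory neurons the genes chosen by this rule were Adnp and Kdm6b. Adnp stood there at 164, 160.4, 245 and 149 CPM in control replicate 1, mutant replicate 1, control replicate 2 and mutant replicate 2, with log2 ratios of -0.063 within replicate 1 and -0.72 within replicate 2. Kdm6b stood at 102, 108, 133 and 210.0 CPM, with ratios of 0.045 and 0.65. In both cases replicate 2 carried the difference, and the fold changes of -0.41 (SE 0.29) and 0.40 (SE 0.39) did not pass the edgeR test (adjusted p = 1.0 for each). With the replicate block they were -0.37 (SE 0.16) and 0.32 (SE 0.16), and did not pass either (edgeR, adjusted p = 0.998 for each).

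In OPCs Adnp stood at 122, 120, 204 and 125 CPM and Trip12 at 121, 113, 131 and 99.2 CPM. The fold change was -0.42 (SE 0.31) for Adnp and -0.26 (SE 0.24) for Trip12, neither of which passed. With the replicate block it was -0.38 (SE 0.18) for Adnp and -0.26 (SE 0.18) for Trip12, and neither passed. In oligodendrocytes Kdm6b stood at 143, 151, 142 and 262 CPM, a fold change of 0.56 (SE 0.35), and Tlk2 at 89.9, 81.1, 69.7 and 49.2 CPM, a fold change of -0.26 (SE 0.33). With the block these were 0.47 (SE 0.19, edgeR, adjusted p = 0.823) for Kdm6b and -0.25 (SE 0.20) for Tlk2. Mutant replicate 2 was the library that stood apart for Kdm6b, and it held 59 oligodendrocytes.

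Auts2 is a gene that the study names in inhibitory neurons, and Shank3 is a gene it names elsewhere. Auts2 stood there at 4017 CPM in control replicate 1, 3568 in mutant replicate 1, 838 in control replicate 2 and 888 in mutant replicate 2. The mutant was thus lower in replicate 1 and higher in replicate 2, and the log2 fold change was -0.15 (SE 1.04, edgeR, adjusted p = 1.0). With the replicate block it was -0.067 (SE 0.14, adjusted p = 1.0). Shank3 stood at 15.2, 13.7, 7.34 and 5.44 CPM, lower in the mutant of both replicates, from only 13 and 10 UMIs in replicate 2, with a fold change of -0.24 (SE 0.67). With the replicate block the Shank3 fold change was -0.23 (SE 0.28).

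Cntnap2 and Scn2a, of the synapse and channel genes, were named here after their values were seen. Cntnap2 in inhibitory neurons stood at 466, 344, 25.4 and 11.97 CPM in control replicate 1, mutant replicate 1, control replicate 2 and mutant replicate 2, lower in the mutant of each replicate. With the block its log2 fold change was -0.60 (SE 0.17, edgeR, unadjusted p = 0.00404, adjusted p = 0.998). A cluster of the class led by Galntl6, in which Cntnap2 stood at 1305 CPM over the libraries, made up 7.69%, 6.56%, 7.67% and 3.20% of the inhibitory neurons in the same order. Without that cluster the fold change of Cntnap2 with the block was -0.49 (edgeR, unadjusted p = 0.00514). Other clusters of the class shifted more. In the same order of libraries, the Prokr2-led cluster made up 0%, 0.17%, 51.7% and 66.9% of the inhibitory neurons and the Parm1-led cluster 47.5%, 49.8%, 14.7% and 8.90%. The part of these shifts in the values of Cntnap2, Adnp and Kdm6b in this class was not tested.

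Scn2a in excitatory neurons stood at 53.4, 25.9, 11.0 and 10.4 CPM in control replicate 1, mutant replicate 1, control replicate 2 and mutant replicate 2, where control replicate 1 was the high library. The libraries of replicate 2 lay close together and below both of replicate 1. The log2 fold change of Scn2a was -0.82 (SE 0.88, edgeR, adjusted p = 1.0).

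Dscam in brain macrophages was the 1 pair called with the block. Control replicate 1 held 63 of its UMIs and mutant replicate 1 held 88, which correspond to 22.6 and 96.1 CPM, while there were 0 UMIs in both libraries of replicate 2, where 3 UMIs would correspond to 9.52 CPM in the control and 7.36 CPM in the mutant. The difference thus came from replicate 1, with 204 control and 72 mutant macrophages. Its log2 fold change was 1.93 with the block (SE 0.41, edgeR, adjusted p = 0.00674) and 1.63 without (SE 1.43, adjusted p = 1.0). With 0 UMIs in replicate 2, the fit with the block rests on 1 control and 1 mutant library for this gene. The SE and p-value of that fit thus measure no spread of Dscam between libraries of a genotype. Dscam was at its highest in OPCs, and the summed level of 6 OPC markers in the same macrophages was 64.6 CPM in control replicate 1, 170.4 in mutant replicate 1, 41.3 in control replicate 2 and 118 in mutant replicate 2. That sum was higher in the mutant than in the control library of each replicate in all 12 classes, and 990 OPCs were kept in mutant replicate 1 against 656 in control replicate 1. In other classes with little Dscam, mutant replicate 1 was likewise the high library, with 14.8 CPM in NPCs against 4.99 in control replicate 1. Other marker sums in the macrophages, each of 6 markers, are given in the order control replicate 1, mutant replicate 1, control replicate 2 and mutant replicate 2. They were 5.38, 22.9, 0 and 0 CPM for excitatory neurons, 116, 117, 6.35 and 7.36 for inhibitory neurons, and 39.4, 62.3, 41.3 and 34.3 for oligodendrocytes. The part of RNA from OPCs or from other cells in the result was not tested.

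**Figure D4:**
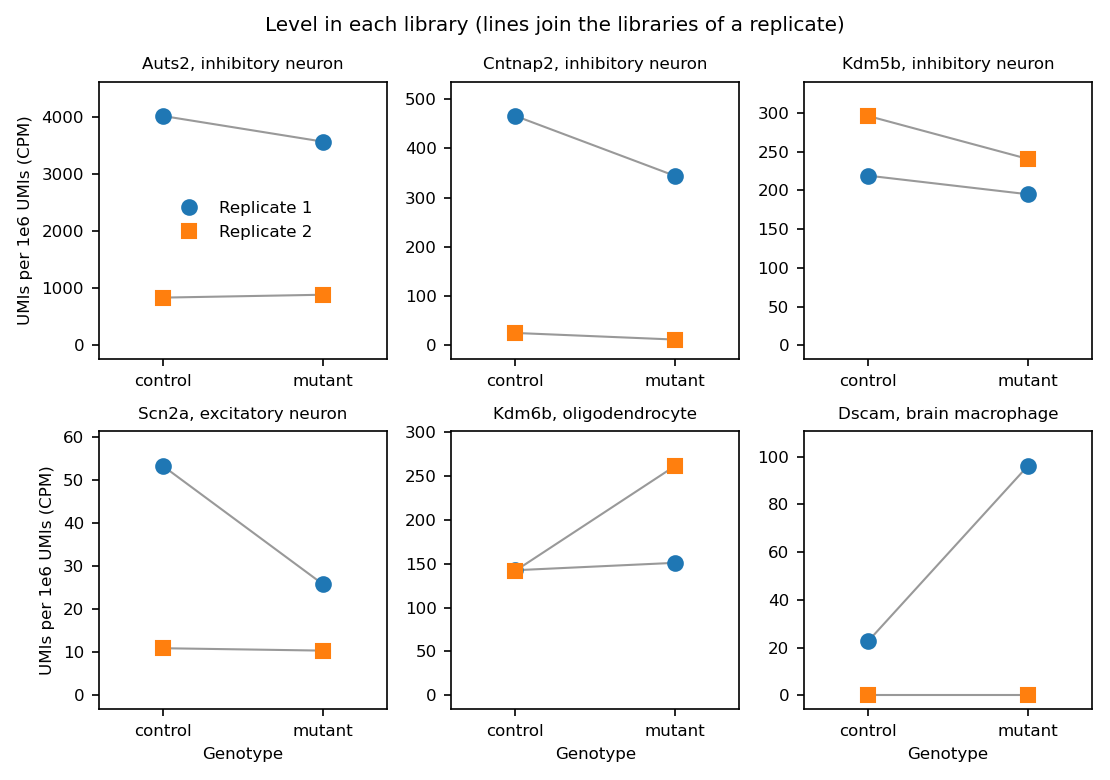
CPM in each library for 6 gene and class pairs, with circles for replicate 1, squares for replicate 2 and a line joining the control and mutant library of a replicate. Auts2 and Cntnap2 in inhibitory neurons separate by replicate (4017 and 3568 against 838 and 888 CPM for Auts2), Kdm5b lies lower in the mutant of both replicates, and Dscam in brain macrophages is at 0 in replicate 2.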

How the data were processed

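The deposited files were filtered gene-by-barcode matrices of UMI counts, made by the authors with Cell Ranger on mm10 (version 3.0 in the submitters' processing notes, 7.0.0 and 5.0.1 in the matrix headers) from 3' libraries of sorted cells. Groups were taken from the sample titles. Barcodes were retained if they had between 2000 and 40000 UMIs, no fewer than 1000 genes and a mitochondrial share of no more than 10%. Doublets were not called, and cells were clustered with scanpy 1.11.5 (2000 variable genes without the 37 genes, 30 components, 15 neighbours, resolution 1). Clusters were named from fixed markers. Counts were summed per library and class, passed through filterByExpr and TMM scaling, and compared with the edgeR 4.0.16 quasi-likelihood test, with Benjamini-Hochberg adjustment over all genes of a class. Here n is 2 libraries against 2. DESeq2 1.42.0 was an alternative. The study itself tested cells as replicates, which was not done here. Within-replicate log2 ratios used scaled CPM with a prior count of 2 and have no test. Depth per library limits precision, and intervals cover counting error only. Intron lengths came from GENCODE vM21.

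The 37 genes, the 76 further genes and the lists were chosen with earlier results of these data known. Genes with values in every library were named by rule: those called with or without the block, the 2 largest same-direction differences per main class (50 UMIs or more in every library), the 3 most and the 1 least class-variable gene per role, genes the study names, and the 2 largest and 2 smallest differences between replicates. Other named genes were chosen after their values were seen. Whether the replicate number pairs libraries is not stated in the labels. Deviations from the group means correlated between libraries of a number at 0.61 to 0.90 across the 12 classes and all cells, and the headers separate the numbers as well. A result on the makeup of the excitatory neurons is not reported here.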

Additional observations from a re-analysis of the deposited data

Results flagged for a closer look

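Auts2 went opposite ways in a pair of cell classes, which flagged it for a closer look. In dividing astrocyte progenitors the log2 ratio of mutant over control was 0.016 in replicate 1 and 0.10 in replicate 2, so the mutant library was higher in both. In ependymal cells it was -0.19 and -0.13, lower in both. Auts2 was higher in both replicates in 1 class and lower in both in 4. The difference between classes was not tested, and the values rest on 1 library per genotype and replicate.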

How the results depend on the processing

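The count of called pairs was 0 under the alternatives without a replicate block (DESeq2, library totals alone, both count filters, a mitochondrial limit of 5%, resolution 2, the genes among the variable genes, and each library left out). The replicate block gave 1 called pair, 1 with resolution 2 and 2 with the genes among the variable genes, where Dscam in astrocyte progenitors was added (log2 1.23, adjusted p = 0.00367). It gave 0 with at least 10 counts in every library or a 5% mitochondrial limit. The replicate block changed no other call of the 37 genes. These combined alternatives, and the fit of inhibitory neurons without the Galntl6-led cluster, were chosen after seeing the data. Dscam in brain macrophages could not be tested with the stricter filter or the 5% limit.

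The median difference between replicates over all cells was -0.65 in controls and -0.55 in mutants with at least 10 counts in every library. Over the 12 classes the control median of -0.50 became -0.47 with library totals, with at least 10 counts and at resolution 2, and -0.40 at the 5% limit, and the mutant median of -0.53 became -0.51 with library totals. Counts of pairs lower in both replicates ranged from 110 to 140, and higher from 70 to 86.

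The fold changes of 7 genes crossed 0 when mutant replicate 2 was left out, and those of Chd8, Mbd5, Auts2 and Shank3 also without control replicate 1. Their ranges were -0.17 to 0.43 for Chd8 over all cells, -0.039 to 0.78 for Ppp2r5d and -2.17 to 1.43 for Mbd5 in excitatory neurons, -0.081 to 0.77 for Kdm6b, -1.56 to 1.48 for Auts2 and -1.11 to 0.45 for Shank3 in inhibitory neurons, and -0.66 to 0.031 for Tlk2 in oligodendrocytes. Other fold changes kept their direction but moved by over 1.5 times. Without control replicate 2, Adnp was at -0.056 in OPCs and -0.12 in inhibitory neurons, and without control replicate 1 at -0.71 and -0.62. Without mutant replicate 2, Kdm6b in oligodendrocytes was at 0.10 and Trip12 in OPCs at -0.12, and without mutant replicate 1 at 0.91 and -0.42. Dscam in brain macrophages was at 3.87 without control replicate 1 and 2.47 without mutant replicate 2. At the 5% limit Ppp2r5d was at 0.11 and Auts2 at -0.084. Without the Galntl6-led cluster Shank3 was at -0.12, and with the replicate block Mbd5 was at -0.27. For Auts2 the replicate block with the 5% limit gave 0.021. The cause was not tested. A library left out leaves 1 library of that genotype, assumed to vary like the others. With 2 libraries a side, small classes such as oligodendrocytes limit what could be called.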
